A study of Mus musculus with 1989 samples.

Results

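Zbtb7b, Runx3, Runx1, Gata3 and Tox, the nuclear regulators of the choice between the CD4 and the CD8 lineage, were followed through thymocyte development. The 5 genes were taken by name from the 8846 genes of a single-cell RNA-seq (scRNA-seq) table. The 434 peaks whose nearest protein-coding transcription start belonged to one of them were taken from the 138317 peaks of a single-cell ATAC-seq (scATAC-seq) table.

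The cells came from the thymus of male C57BL/6 mice at 7 weeks of age, with no transgene or treatment named. The scRNA-seq library held 1993 cells of the whole thymus from 1 droplet run. The scATAC-seq data held 182 cells sorted as double negative (DN, without CD4 and CD8), 125 as double positive (DP, with both), 119 as CD4, 116 as CD8 and 1436 unsorted total thymocytes, of which 1084 were used here. No animal was named for a cell, so the library and each sort counted as 1 sample. Differences therefore had no replicate check and no p-value was computed. SDs are over cells, and intervals are exact 95% binomial (shares) or Poisson (sums) intervals that cover counting error only.

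DP thymocytes whose T cell receptor binds self peptide on MHC are positively selected, and they become CD4 cells after engagement of MHC class II and CD8 cells after engagement of MHC class I. Zbtb7b encodes ThPOK, the zinc finger factor that commits cells to the CD4 lineage, and Runx3 encodes the Runt factor that silences Cd4 and Zbtb7b in CD8 cells. Runx1 represses Cd4 in DN cells, Gata3 acts upstream of Zbtb7b in class II restricted cells, and Tox, an HMG box protein, is needed for the CD4 lineage after positive selection. Runx1 and Runx3 are each transcribed from a distal and a proximal promoter.

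The RNA values were log2 values after quantile normalization, which keeps the order of the genes within a cell. In place of a count, each value was therefore given its position in the sorted distinct values of that cell, in units called steps. Steps per cell differed between stages, with medians of 7318 in ISP-like, 5259 in DPbla-like, 2000.5 in DPre-like and 1973 in DPsel-like cells. Shares and sums of steps are given after each cell was thinned to 1300 steps, unless they are called unthinned. Clusters were named from marker genes after the stages of the study: DN (78 cells), immature single positive (ISP, 308), DP blast (DPbla, 345), rearranging DP (DPre, 494), selected DP (DPsel, 365), CD4 single positive (CD4sp, 144) and CD8 single positive (CD8sp, 120). Runx3 was among the 10 genes that led the CD8sp-like cluster by fold, and Zbtb7b among those that led the later of 2 DPsel-like clusters. Of these 2, the one with the larger share of cells with Ccr7 was called late and the other early. Their comparison was not among those planned. The 5 members were left out of the genes used for clustering but genes that vary with them were not, so the differences between classes are descriptions. Of the DPre-like cells, 123 formed a cluster led by histone and mitotic genes such as Cenpa and Ccnb2, with Mki67 in 42.3% of cells and no rearrangement gene among its 10 leading genes.

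Tox was detected in 50.1% of DPsel-like cells and Gata3 in 32.6%, the highest shares of both among all classes, whereas among the T cell stages Zbtb7b was highest in CD4sp-like, Runx3 in CD8sp-like and Runx1 in DN-like cells. When the 10 classes and groups of cells were ordered by each gene's share, 3 of the 45 neighbouring pairs had intervals that did not overlap. These were Runx3 between CD8sp-like and DN-like cells, and Tox between DPsel-like and CD8sp-like and between CD4sp-like and DPre-like cells. Other neighbours in the order could not be told apart at this depth.

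**Figure D1:**
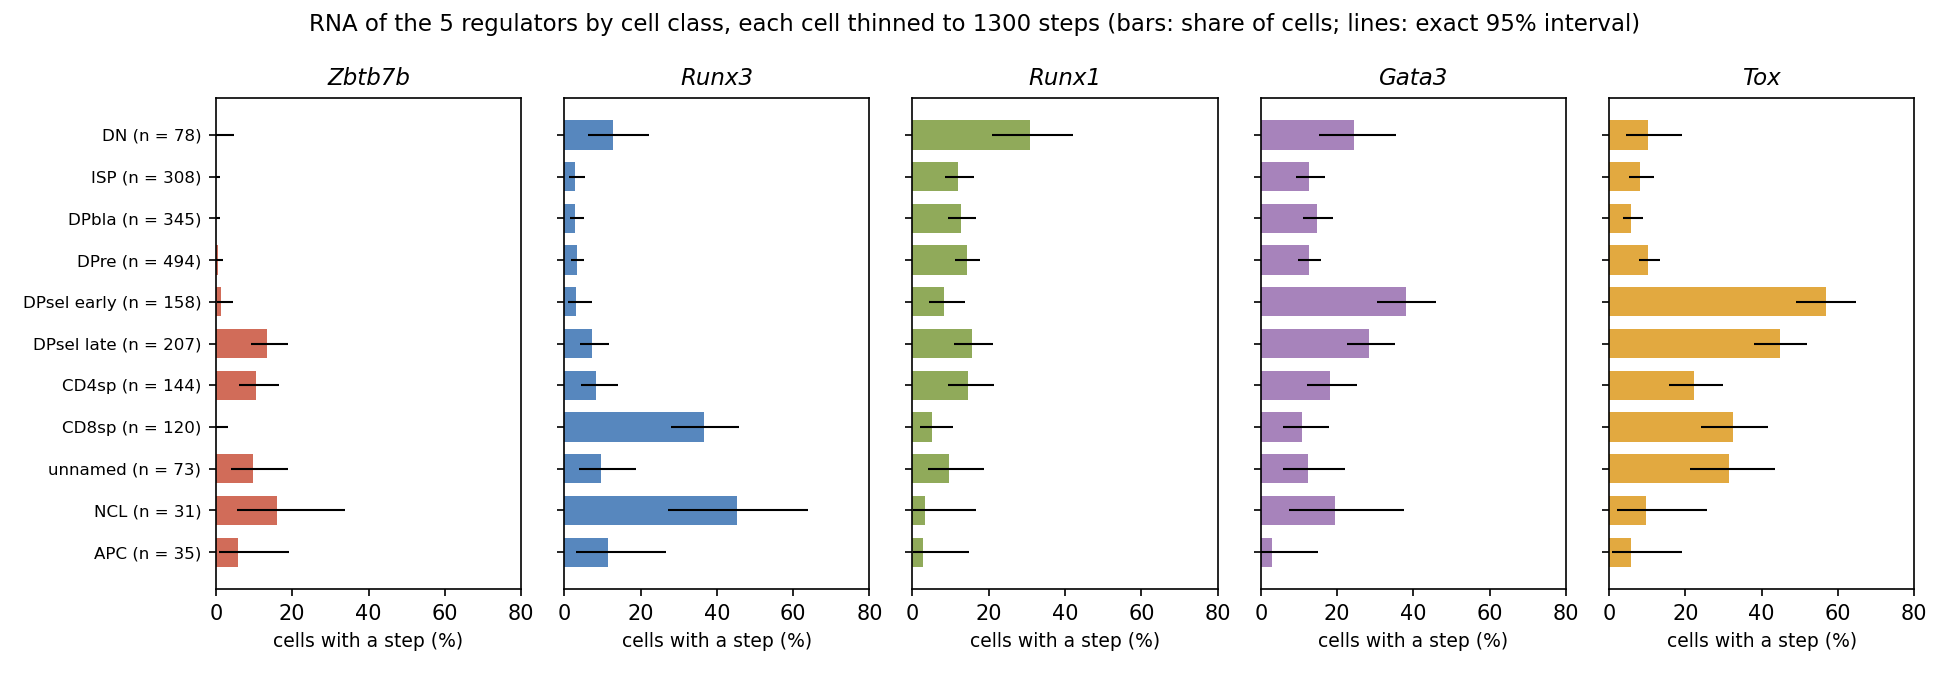
Share of cells with a step of each gene (percent, after thinning to 1300 steps per cell) in each cell class of the scRNA-seq library, with exact 95% binomial intervals. Tox and Gata3 peak in DPsel-like cells (50.1% and 32.6%), Runx3 is at 36.7% in CD8sp-like cells against 8.33% in CD4sp-like cells, and Zbtb7b is at 10.4% in CD4sp-like cells and 0 in CD8sp-like cells.

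Zbtb7b was rare before selection and appeared in the later selected cells. It was detected in 0.607% of DPre-like cells, 8.22% of DPsel-like cells, 10.4% of CD4sp-like cells and 0 of 120 CD8sp-like cells, where a count of 0 allows up to 2.50% by the limit of 3 cells and 3.03% by the exact interval, both for thinned cells. Unthinned, 1 CD8sp-like cell (0.833%, median of 2588.5 steps) and 29 CD4sp-like cells (20.1%, 13.9 to 27.6; median of 2228 steps) had a value above 0. Mean log2 values were 0.16 ± 0.35 (SD, 144 cells) in the CD4sp-like class and 0.00 ± 0.04 (120 cells) in the CD8sp-like class. Thinned sums were 32 steps in DPsel-like and 3 in DPre-like cells, which is 14.4 times more per cell (4.52 to 73.7). Within the DPsel-like cells, the early cluster held 2 steps in 158 cells and the late cluster 30 in 207, a ratio of 11.4 (2.91 to 98.9). CD4sp-like cells held 15 steps and CD8sp-like cells none, so that the level was at least 4.17-fold higher in CD4sp-like cells against a floor of 3 steps per class, with a lower exact limit of 2.99-fold. This pair had fewer than the 20 steps asked of a gene before its fold was judged. As a background level, Zbtb7b was in 2 of 35 APC-like cells, a share of 5.71% (0.700 to 19.2) both thinned and unthinned, an interval that includes the shares of DPsel-like and CD4sp-like cells.

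A gene was called past the fold where the ratio was at least 1.5 and the 2 intervals did not overlap. Between DPsel-like and DPre-like cells, 6.41% of the 6910 genes judged were past the fold upward and 6.03% downward. Zbtb7b, Gata3 and Tox were past it upward, Runx3 and Runx1 were not past it, and no member was past it downward. Between CD4sp-like and CD8sp-like cells, 1.39% of 3441 genes were past the fold upward and 1.02% downward, and among the 4 members judged only Runx3 was past it, downward. Between late and early DPsel-like cells, 3.03% of 4492 genes were past it upward and 3.38% downward, and only Zbtb7b of the 5 members was past it, upward.

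Runx3 had its highest share among the T cell stages in CD8sp-like cells. It was detected in 12.8% of DN-like cells, 2.92% of ISP-like, 2.90% of DPbla-like, 3.24% of DPre-like and 5.48% of DPsel-like cells. In CD4sp-like cells the share was 8.33%, and it was 36.7% in CD8sp-like cells. The 12.8% of DN-like cells (6.32 to 22.3) lay near the 11.4% of APC-like cells (3.20 to 26.7) and overlapped the interval of CD4sp-like cells. Mean log2 values were 0.81 ± 0.86 (SD, 120 cells) in CD8sp-like and 0.16 ± 0.40 (144 cells) in CD4sp-like cells. CD8sp-like cells held 59 thinned steps and CD4sp-like cells 15, which is 4.72 times more per cell in the former (2.64 to 8.96). Over DPre-like cells, DPsel-like cells held 1.75 times more (0.888 to 3.51), an interval that includes no change. Markers of NK-like cells were also higher in CD8sp-like than in CD4sp-like cells. The 8 markers summed to 190 steps per 100 CD8sp-like cells with none at 0, and to 43.1 per 100 CD4sp-like cells with 1 at 0. In NCL-like cells they summed to 1432 per 100 cells. They did not follow Runx3 in every class, at 78.6 per 100 ISP-like and 77.8 per 100 DPsel-like cells. In CD8sp-like cells, Nkg7 held 106 and Id2 52.5 of the 190 steps. The part of these markers in the result was not tested.

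Runx1 was highest at the start of development. DN-like cells held it in 30.8% of cells, against 12.0% of the ISP-like and 12.8% of the DPbla-like class. The share was 14.2% in DPre-like and 12.3% in DPsel-like cells. DPsel-like and DPre-like cells differed by a ratio of 0.908 (0.624 to 1.31). In CD4sp-like cells 24 thinned steps were counted and in CD8sp-like cells 6, a ratio of 3.33 (1.33 to 9.97) whose 2 sums had overlapping intervals of 16.7 (10.7 to 24.8) and 5.00 (1.83 to 10.9) steps per 100 cells. Its mean log2 values were 0.28 ± 0.49 (SD) in the CD4sp-like and 0.09 ± 0.26 in the CD8sp-like class, the opposite order to Runx3. Markers of other cells were also higher in DN-like than in ISP-like cells, with 25.6 against 3.57 steps per 100 cells for the 2 epithelial markers in the table and 14.1 against 3.57 for the 4 B cell markers, 3 of them at 0 in DN-like cells. Their part in the Runx1 level was not tested. Depth was uneven at these stages: unthinned, Runx1 was above 0 in 45.1% of ISP-like and 46.4% of DPbla-like cells but 23.1% of DPre-like cells.

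Gata3 and Tox were both higher in DPsel-like than in DPre-like cells, Tox by the larger ratio. The thinned sum of Tox was 81.6 steps per 100 DPsel-like cells (72.6 to 91.5) against 10.9 per 100 DPre-like cells, a ratio of 7.47 (5.57 to 10.2). For Gata3, 162 steps in 365 DPsel-like cells against 69 in 494 DPre-like cells gave a ratio of 3.18 (2.38 to 4.28). Mean log2 values were 1.05 ± 1.00 (SD, 365 cells) against 0.14 ± 0.38 (494 cells) for Tox and 0.60 ± 0.82 against 0.21 ± 0.46 for Gata3. As a background level, Tox and Gata3 were each above 0, unthinned, in 3 of 35 APC-like cells (8.57%, 1.8 to 23.1; median of 2412 steps). The unthinned shares in DPre-like cells were 15.2% for Tox and 20.9% for Gata3, both within that interval.

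Both genes were already high in the early DPsel-like cluster, unlike Zbtb7b. Tox was in 57.0% of early and 44.9% of late cells and Gata3 in 38.0% and 28.5%, with late-to-early ratios of 0.723 and 0.709, neither past the fold. In the single positive classes, Tox was at 43.3 steps per 100 CD8sp-like cells (32.4 to 56.8) and 25.7 per 100 CD4sp-like cells (18.1 to 35.4), 1.69 times more per cell in the former (1.09 to 2.64), with overlapping intervals. Gata3 was at 20.8 steps per 100 CD4sp-like and 12.5 per 100 CD8sp-like cells, a ratio of 1.67 (0.869 to 3.33).

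Cells of the DPre-like class and all later T cell classes were also placed in 1 order from a neighbor graph and divided into 10 bins of 112 or 113 cells. Tox went from 16.1% of cells in bin 4 to 39.3% in bin 5 and 55.4% in bin 6, and Gata3 from 9.82% to 30.4% and 37.5%. Both were lower at the end, Tox at 54.5% in bin 7 and 22.3% in bin 10 and Gata3 at 29.5% and 17.0%. In bin 4, Rag1, a subunit of the recombinase that rearranges receptor genes, was still in 82.1% of cells, and it was in 50.0% of bin 5 and 22.3% of bin 6. Zbtb7b was in 1.79% of bin 6, 10.7% of bin 7, 14.3% of bin 8, 8.04% of bin 9 and 5.36% of bin 10. Ccr7, a chemokine receptor of cells that leave the cortex, was in 2.68% of bin 6 and 21.4% of bin 7, with intervals that did not overlap for Ccr7 but did for Zbtb7b (0.217 to 6.30 and 5.66 to 18.0). Ccr7 was among the markers that set the end of the order, so its rise is no finding. Runx3 was at 1.77% or less in bins 1 to 3, at 8.04%, 6.25%, 2.68% and 6.25% in bins 4 to 7, and at 16.1%, 15.2% and 25.0% in bins 8 to 10. CD8sp-like cells numbered 2 in bin 7 and 32, 41 and 44 in bins 8 to 10. The part of this mixture in the Runx3 values was not tested. Runx1 showed no steady trend, at 9.73%, 11.5%, 15.9%, 21.4% and 6.25% in bins 1 to 5 and between 8.04% and 17.0% in bins 6 to 10. The intervals in bins of this size are wide and those of neighbouring bins often overlapped, though not between bins 4 and 5 for Tox, Gata3 and Runx1.

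**Figure D2:**
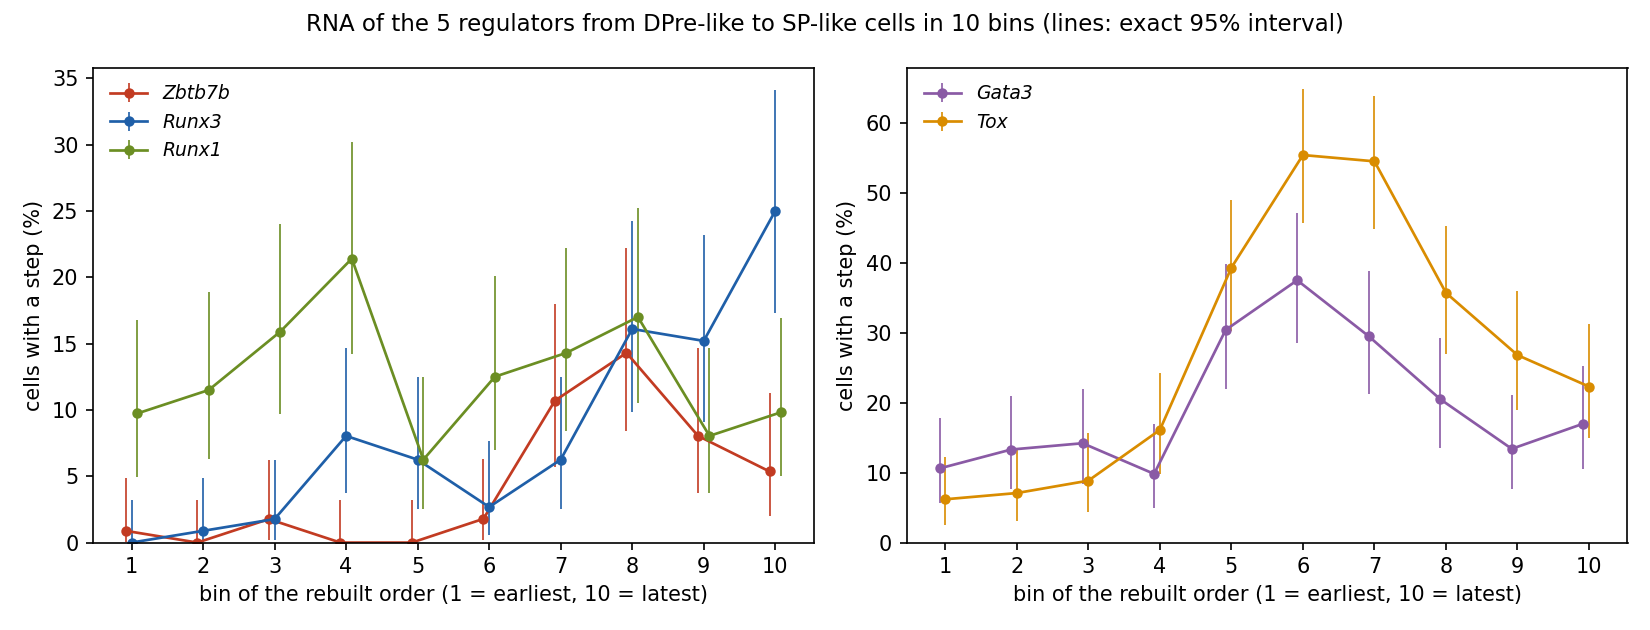
Share of cells with a step of each gene (percent, after thinning) in 10 bins of the cell order, from DPre-like cells at the left to single positive cells at the right. Between bins 4 and 5, Gata3 goes from 9.82% to 30.4% and Tox from 16.1% to 39.3%, Zbtb7b is at 10.7% in bin 7, and Runx3 is at 25.0% in bin 10.

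Zbtb7b and Runx3 were detected in the same cell about as often as their separate shares would give. Over all cells, unthinned, 15 cells held both where 14.9 were expected from the shares if the genes were detected independently. In DPsel-like cells 4 held both (4.27 expected), in CD4sp-like cells 4 (4.63 expected) and in CD8sp-like cells 1 (0.608 expected). At these numbers, exclusion of one gene by the other within single cells was not detectable. Gata3 and Tox were detected together in 299 cells where 238 were expected over all classes, but in 112 where 107 were expected within DPsel-like cells. Zbtb7b and Runx1 shared 14 CD4sp-like cells (8.26 expected), and Runx3 and Runx1 shared 15 CD8sp-like cells (10.3 expected). All counts of cells in this paragraph are unthinned. Of all 1993 cells, 555 held none of the 5 genes, 751 held 1 and 473 held 2. Among DPre-like cells 243 of 494 held none, and among DPsel-like cells 46 of 365.

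The coreceptor mRNAs did not divide the single positive classes cleanly. CD4sp-like cells held 54.2 steps of Cd4 per 100 cells and CD8sp-like cells 9.17, whereas Cd8b1 was at 96.5 and 300. Cd8b1 was above 0, unthinned, in 82.8% of the 29 CD4sp-like cells with Zbtb7b and in 70.4% of the 115 without, and Cd4 in 65.5% and 57.4%. The CD4sp-like cluster was led by Igfbp4, S1pr1, Ifit1, Slfn1 and Klf2 and not by Cd4, so its name rests on its fixed markers. In CD8sp-like cells, Cd4 was above 0 in 16.4% of the 73 cells with Runx3 and 27.7% of the 47 without, and Cd8a in 91.8% and 76.6%. The 609 cells of any class with Ccr7, Klf2 or S1pr1 above 0 were also divided by coreceptor mRNA. The Cd8 only group held 77 CD8sp-like, 56 DPsel-like, 42 CD4sp-like and 28 ISP-like cells among others. Runx3 was above 0 in 33.9% of the 283 with Cd8 only and 11.8% of the 17 with Cd4 only, with intervals that overlap (28.4 to 39.8 and 1.46 to 36.4). Zbtb7b was above 0 in 8.48% and 11.8% of these cells, which differed by less than their intervals (5.51 to 12.4 and 1.46 to 36.4).

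Over the means of all 16 clusters, the genes most like each member were found by Pearson's r among 8400 genes. The clusters share 1 library and differ in depth and in the proliferation of their cells, so r is a description only. Tox was most like Cd69 (0.978), a surface marker of receptor signalling, Nab2 (0.965) and Egr2 (0.942), which encode a repressor and an activator of the early growth response family. Gata3 was most like Hivep3 (0.898), Rapsn (0.830) and Egr2 (0.796). Zbtb7b was most like Fam102a (0.900), Cd40lg (0.891), the ligand by which CD4 cells help B cells, and Lasp1 (0.889). Runx3 was most like AC121801.1 (0.956), Ctsw (0.932), a cathepsin of cytotoxic cells, and Cst7 (0.913), a cystatin of the same cells. For Runx1, r was 0.913 with N4bp2 and 0.908 with Naxd. Between members, r was 0.72 for Gata3 and Tox and 0.37 for Zbtb7b and Runx3.

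A set of 4 lists give the other genes of the choice, the first of them cofactors and relatives of the 5 members. Of 10 such genes, 7 were in the table and 4 were judged between DPsel-like and DPre-like cells. Cbfb, the partner that Runx proteins need for stable DNA binding, was past the fold at 21.9 against 11.3 steps per 100 cells (1.93-fold), and the median log2 ratio of the judged genes was 0.07, beside -0.01 over all genes judged. Of 33 other regulators, 32 were judged, 7 were past the fold upward and 5 downward, beside 6.41% and 6.03% of all genes judged, with a median of -0.09. Those higher in DPsel-like cells were Lef1 (4.56-fold), Ikzf1, Id2 (18.9-fold), Id3, Nfatc1, Egr1 (15.7-fold) and Egr2 (39.2-fold). Id2 and Id3 block E proteins, and Egr1 and Egr2 are induced by receptor signalling. Egr1 was among the markers by which the DPsel-like clusters were named, so its direction is no finding. Those lower were Myb (1.82-fold lower), the E protein gene Tcf12, Gfi1, the BAF remodeller ATPase gene Smarca4 and Nfatc3.

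Between the same classes, most of the CD4 lineage genes judged were past the fold upward and none of the CD8 lineage genes judged was. Of 8 CD4 lineage genes judged, 6 were past the fold upward, beside 6.41% of all genes judged, with a median log2 ratio of 2.61, among them Cd40lg (52.1-fold), Ccr4 (40.6-fold), the costimulatory receptor gene Icos (6.90-fold) and Cd5 (5.37-fold), a brake on receptor signalling. The late cluster, 207 of the 365 DPsel-like cells, scored 0.384 on the DPsel markers and 0.314 on the CD4sp markers, which include Cd40lg and Cd4, so its name was close to a tie. Cd4 itself was 2.06-fold lower. Of the 13 CD8 lineage genes in the table, 5 were judged, and 3 were past the fold downward, beside 6.03% of all genes judged, with a median of -1.44: Cd8a (2.72-fold lower), Cd8b1 (3.28-fold lower) and the granzyme gene Gzma (4.74-fold lower). Ctsw was at 4.38 against 1.21 steps per 100 cells, not past the fold. Between CD4sp-like and CD8sp-like cells the CD8 lineage list had 4 of 5 judged genes lower, beside 1.02% of all genes judged, with a median of -1.56. They were Cd8a, Cd8b1, Nkg7 (16.9-fold lower) and Ctsw (2.95-fold lower), the last 2 being genes of cytotoxic granules. In the CD4 lineage list 1 of 6 judged genes, Cd4 (5.91-fold), was past the fold, beside 1.39% of all genes judged, with a median of 0.93. Cd4, Cd8a, Cd8b1 and, for the DPsel-like class, Cd5 were among the markers by which the classes were named, so their directions are no finding. Among the other regulators, 27 were judged, of which Ets1 (1.72-fold) was higher in CD4sp-like cells and Id2 (1.89-fold) and Dnmt1 (2.84-fold) were lower. Neither of the 2 cofactors judged was past the fold.

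In the scATAC-seq data, the sorts could be checked at the coreceptor genes. Signal is given as counts per 10000 counts in peaks that do not overlap one another, and sums over cells cannot tell fewer open cells from less signal per cell. The Cd8b1 locus was at 1.27 in DN, 3.82 in DP, 0.821 in CD4 and 2.61 in CD8 sorted cells, and Rag1 was highest in DP cells at 1.40. At Cd4 the CD4 and CD8 sorts were alike (1.11 and 1.32), and Il2ra, a DN marker, was not highest in DN cells (1.67 against 2.52 in DP cells). Median counts per cell were from 1671 in CD4 to 2339 in CD8 sorted cells and 3735.5 in total thymocytes.

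The 5 loci differed more in size than between sorts. Runx1, with 196 peaks of which 62 do not overlap, held 7.43 counts per 10000 in DN, 8.44 in DP, 8.94 in CD4 and 7.32 in CD8 sorted cells. Gata3 (85 peaks) held 4.12, 3.92, 4.37 and 4.68 in the same order. Tox (77 peaks) held 3.10, 3.47, 5.34 and 4.40. Runx3 (58 peaks) held 4.35, 2.35, 2.29 and 3.83, so that DN and CD8 cells were high and DP and CD4 cells low. Zbtb7b (18 peaks, 3 without overlap) held 0.409, 0.175, 0.850 and 0.508. Of peaks that overlap, the one with most counts over all cells was kept. The 3 Zbtb7b peaks therefore leave out the peak at its distal starts, which is described below. Total thymocytes were at 0.494 for Zbtb7b, 2.34 for Runx3, 5.60 for Runx1, 3.07 for Gata3 and 2.65 for Tox. Their labels carry a number from 1 to 36 whose meaning is not given, and the 36 groups so numbered varied about means of 0.479 ± 0.267 (SD), 2.34 ± 0.618, 5.58 ± 1.11, 3.06 ± 0.796 and 2.64 ± 0.606.

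**Figure D3:**
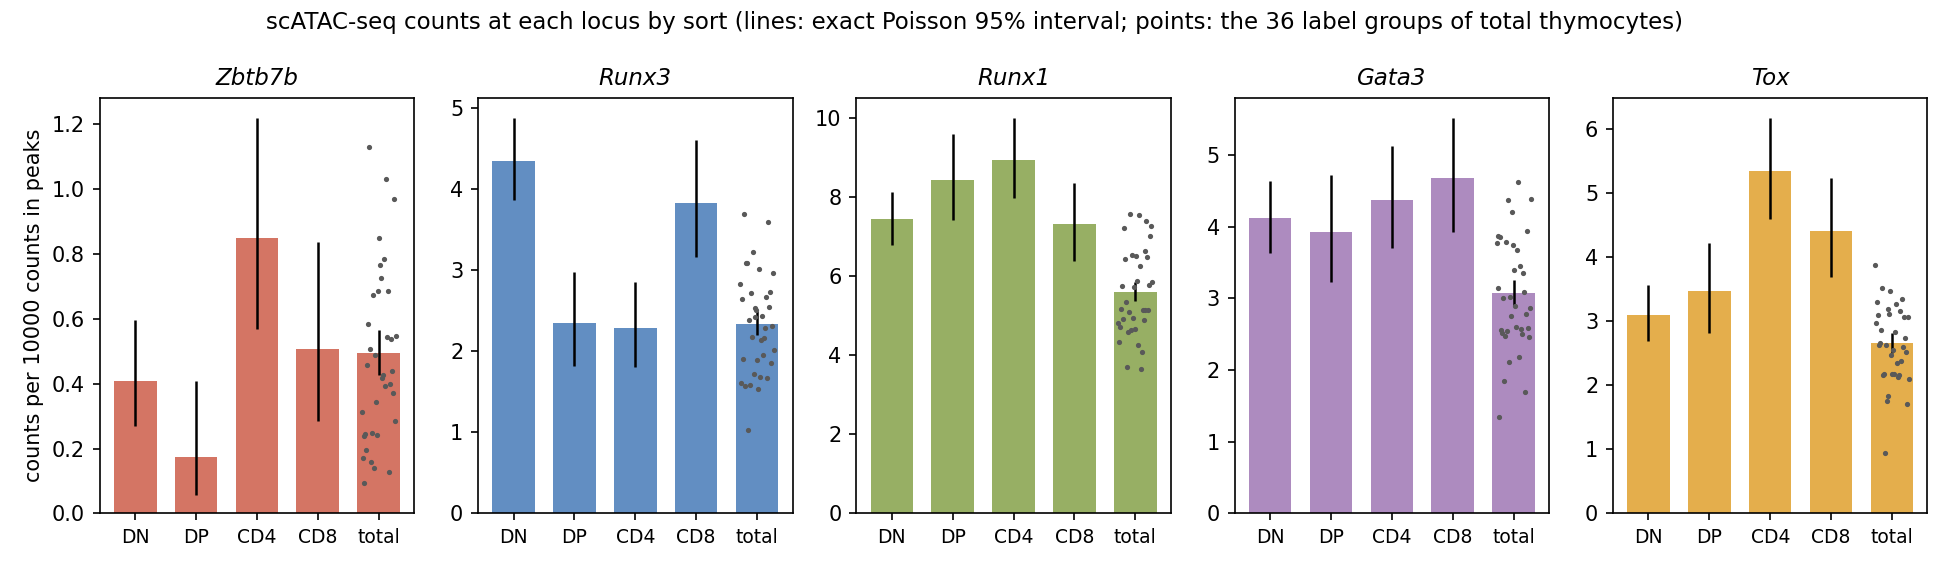
scATAC-seq signal at the 5 loci (counts per 10000 counts in peaks that do not overlap) in DN, DP, CD4 and CD8 sorted cells and total thymocytes, with exact 95% Poisson intervals. Runx3 is high in DN and CD8 cells (4.35 and 3.83) and low in DP and CD4 cells (2.35 and 2.29), and Zbtb7b is lowest in DP cells (0.175).

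The CD4 and CD8 sorts joined, called single positive (SP), held 3.95 times the signal of DP cells at Zbtb7b (1.57 to 12.8; 44 against 5 counts), which was past the fold. The SP-to-DP ratio was 1.41 (1.12 to 1.79) at Tox, with intervals that did not overlap but under the fold, 1.28 at Runx3, 1.15 at Gata3 and 0.970 at Runx1. Of the 10458 loci judged, 5.90% were past the fold upward and 4.96% downward. Between the CD4 and CD8 sorts, 3.51% of 9031 loci were past it upward and 3.75% downward, and of the 5 members Runx3 alone was, 1.67 times higher in CD8 cells (1.24 to 2.26; 113 against 78 counts). As a log2 CD4-to-CD8 ratio this was -0.74. It was -0.44 with only peaks in the gene body and 5 kb around it and -0.33 with all peaks, both under the fold. Zbtb7b was 1.67 times higher in CD4 cells with an interval that includes no change (0.868 to 3.36), Runx1 was at 1.22 (1.02 to 1.46), Tox at 1.21 and Gata3 at 0.934. The Zbtb7b values leave out the peak at its distal starts. Over all 18 Zbtb7b peaks, which overlap and can share reads, CD4 cells held 97 counts and CD8 cells 20. Between DN and DP cells, 5.71% of 10932 loci were past the fold upward and 4.60% downward, and Runx3 alone of the members was, 1.85 times higher in DN cells (1.41 to 2.45). That call was lost within the 1 large label series that both sorts share.

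Most CD4 and CD8 sorted cells carried labels numbered in the 4000s, and the others in the 31000s. DN cells came from series of 1000, 2000, 4000, 31000 and 32000, and DP cells from 3000, 4000 and 31000, and the labels do not say what these stand for. Within the 4000s, Runx3 in DN cells was at 1.43 times the DP level (0.947 to 2.15; 53 against 48 counts), not past the fold, and Gata3 at 1.82 times (1.27 to 2.63), which was past it. The difference at Runx3 between DN and DP cells cannot be told apart from that between label series, although DN cells lay at 3.63 to 5.05 counts per 10000 in the 4 series other than 31000 (1.62). In the 31000s, DP cells were lower as well, at 0.894, on 7 DN and 3 DP counts. Zbtb7b between SP and DP cells was past the fold within the 4000s as well (5.55, 1.43 to 47.5; 37 against 2 counts). Runx3 was at 2.52 counts per 10000 in CD4 and 4.02 in CD8 cells of the first series, and at 1.27 and 1.06 in the second, which held only 8 and 2 counts. For Zbtb7b the values were 0.792 and 0.543 in the first series, and 7 counts against 0 in the second. The window in which reads were counted is not given in the sources used here. Counts may come from nearer the centre than the 4000 bp interval, since intervals starting 1 to 300 bp apart shared 82.2% of the cells of the rarer one but those 2000 to 4000 bp apart 9.24%. When peaks were only asked to start 2000 bp apart, a choice made after seeing the data, Zbtb7b was past the fold between the CD4 and CD8 sorts (2.89, 1.60 to 5.54; 50 against 15 counts). Runx3 then was not (CD4-to-CD8 ratio of 0.713, 0.553 to 0.918).

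At the distal promoter of Zbtb7b, counts were found in CD4 but not in CD8 sorted cells. All coordinates are on GRCm38. The gene (ENSMUSG00000028042.15) lies on the reverse strand at chr3:89377644-89394776. A peak at chr3:89391792-89395791, on the distal group of transcription starts, held 17 counts in 15 of 119 CD4 sorted cells and none in 116 CD8 sorted cells. DN cells held 10 counts in 8 cells, DP cells 1, and total thymocytes 41 in 35 cells. The CD4 sort was thus at 0.498 counts per 10000, at least 4.90-fold above a floor of 3 counts in the CD8 sort (0.102), with a lower exact limit of 3.57-fold. The SP sorts were at 7.63 times the DP level (1.2 to 319). Both pairs had fewer than 20 counts and were not judged. An interval that overlaps this one, chr3:89392182-89396181, held 8 counts in DN, 6 in DP, 7 in CD4 and 1 in CD8 cells. Of the 18 Zbtb7b peaks, many of which overlap, 12 had counts in CD4 but not CD8 cells, 6 had counts in both and 0 had counts in CD8 cells alone. Over all 109617 peaks with a count in either sort, 17.9% had CD4 counts alone and 18.4% CD8 counts alone. The Zbtb7b peaks with most CD8 counts were chr3:89386991-89390990, with 12 in CD4 and 7 in CD8 cells, and chr3:89394435-89398434, with 11 and 8. The peak at the proximal start, chr3:89385168-89389167, held 4 counts in DN, 3 in DP, 1 in CD4 and 0 in CD8 cells. The 250 bases before the outermost coding transcript start of the distal group are shown because the centre of the CD4 peak lies in them. They are the reverse strand of chr3:89393679-89393928 and overlap an exon of a noncoding Zbtb7b transcript.
Zbtb7b distal promoter: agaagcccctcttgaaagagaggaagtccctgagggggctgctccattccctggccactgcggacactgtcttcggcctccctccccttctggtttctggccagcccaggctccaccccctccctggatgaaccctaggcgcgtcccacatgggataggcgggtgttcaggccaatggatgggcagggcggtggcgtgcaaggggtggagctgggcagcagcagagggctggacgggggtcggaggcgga

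**Figure D4:**
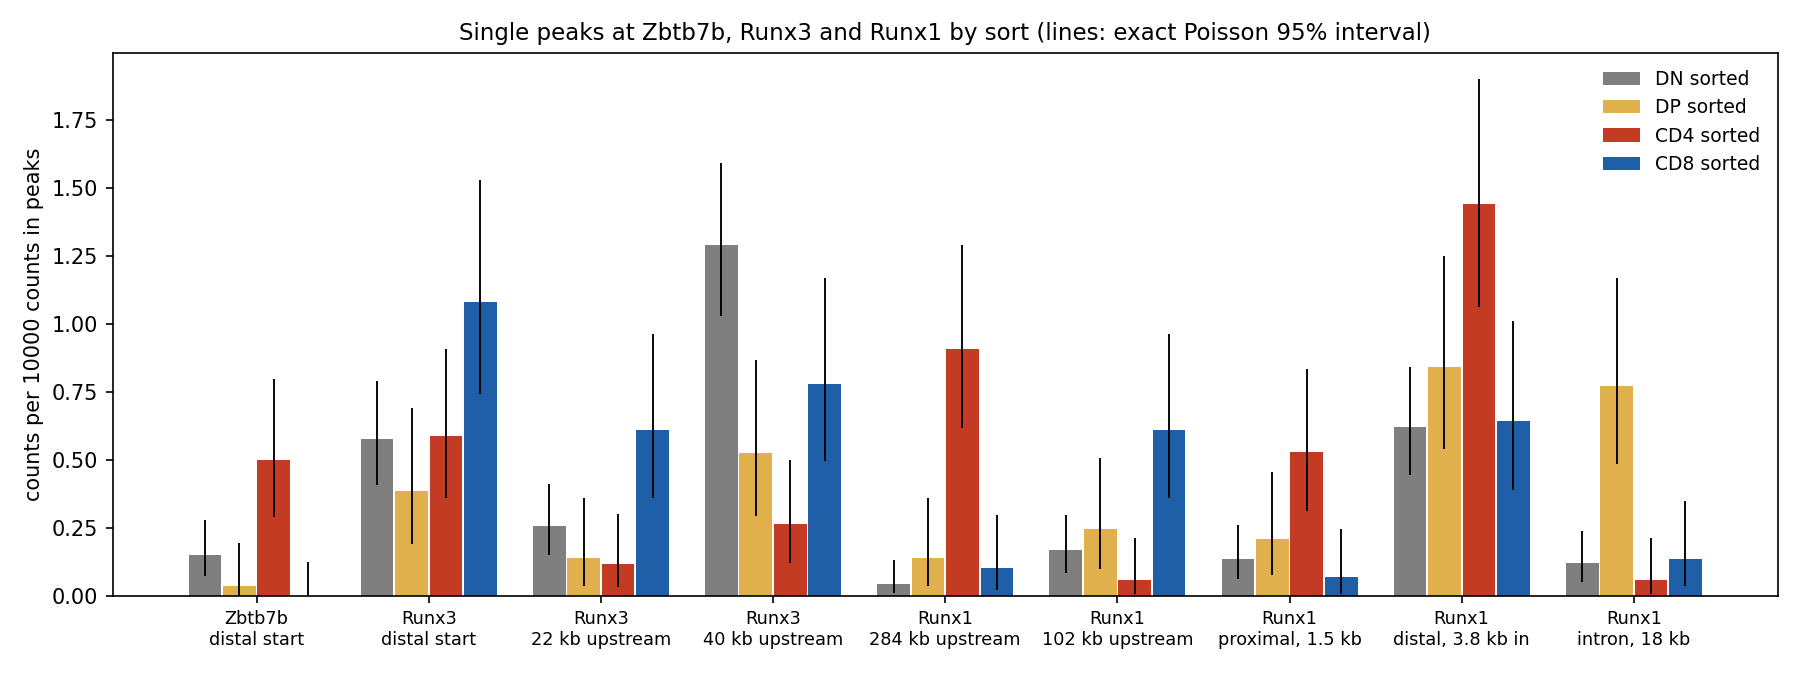
Signal of single peaks at Zbtb7b, Runx3 and Runx1 (counts per 10000 counts in peaks) in DN, DP, CD4 and CD8 sorted cells, with exact 95% Poisson intervals. The peak at the distal Zbtb7b start has 17 counts in CD4 and 0 in CD8 sorted cells, and the Runx3 peak 22.0 kb upstream has 4 and 18.

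At single peaks, 6.24% of 20143 peaks judged were past the fold upward and 5.47% downward between SP and DP cells. Among the members 46 of the 434 peaks had enough counts, of which 3 were past it upward and 4 downward, all at Runx1. Between CD4 and CD8 cells the background was 3.58% upward and 3.76% downward of 13196 peaks, and of 28 member peaks 4 were upward, all at Runx1, and 2 downward, 1 each at Runx3 and Runx1. Between DN and DP cells it was 3.75% upward and 6.09% downward of 20464 peaks, and of 47 member peaks 1 was upward, at Runx3, and 6 downward. Overlapping peaks can share reads, and with only non-overlapping peaks the counts were 1 upward and 2 downward of 30, 3 and 2 of 20, and 1 and 5 of 30. The peaks described next were chosen by this fold or by their place at a start, and their values are descriptions.

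Runx3 (ENSMUSG00000070691.10; forward strand, chr4:135120652-135177990) had 1 peak centred within 2 kb of its distal start and 5 overlapping peaks, each with fewer counts, within 2 kb of its proximal start. The peak at chr4:135118460-135122459 held 38 counts in DN, 11 in DP, 20 in CD4 and 32 in CD8 cells, in 30, 10, 16 and 25 cells. The CD8 sort was 1.85 times above the CD4 sort (1.03 to 3.41), not past the fold. The proximal promoter peak, chr4:135150455-135154454 within an intron of the longer transcript, held 6, 2, 4 and 0 counts, fewer than the distal peak in every sort. In total thymocytes the 2 peaks were closer, at 97 counts in the distal and 71 in the proximal one. Of the 4 other peaks centred within 2 kb of the proximal start, 3 held more counts in DN cells than this one, such as chr4:135151760-135155759 with 17 counts in DN, 3 in DP, 5 in CD4 and 6 in CD8 cells. Those 17 DN counts came from 8 cells, with 10 in 1 cell and none in the 4000s. Upstream peaks favoured either sort: one 36.8 kb before the distal start, chr4:135081821-135085820, held 8 counts in CD4 and 0 in CD8 cells, too few to be judged. The 2 upstream peaks past the fold are given next. An intergenic peak 22.0 kb before the distal start, chr4:135096665-135100664, held 17 counts in DN, 4 in DP, 4 in CD4 and 18 in CD8 cells, 5.20 times more in CD8 than in CD4 cells (1.71 to 21.1), and the 18 counts came from 16 cells. A second intergenic peak 40.1 kb before the start, chr4:135078527-135082526, held 85, 15, 9 and 23 counts. It was 2.45 times higher in DN than in DP cells (1.40 to 4.57), with up to 13 counts in 1 DN cell and 9 of the DP counts in 1 cell, and 2.95 times higher in CD8 than in CD4 cells (1.32 to 7.25, not past the fold). Within the 4000s it held 12 counts in DN and 13 in DP cells, a ratio of 1.19 (0.497 to 2.84), so the DN-to-DP call was lost there.

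The sequences of the 2 promoters and of the centres of the 2 upstream peaks are shown to compare both starts of the gene with the 2 peaks past the fold between sorts. Each is read on the forward strand of GRCm38.p6, and capitals mark TGTGGT, the core letters bound by Runx proteins, or its reverse complement ACCACA. The distal promoter is chr4:135120402-135120651 and holds 2 matches, whereas the proximal promoter, chr4:135152246-135152495, holds none. These letters are in 12.6% of 54329 promoter windows of 250 bases. The peak centres are chr4:135098515-135098814, with 1 match, and chr4:135080377-135080676, with none. Of all 138317 peak centres of 300 bases, 27.5% hold a match, so a single match is common.
Runx3 distal promoter: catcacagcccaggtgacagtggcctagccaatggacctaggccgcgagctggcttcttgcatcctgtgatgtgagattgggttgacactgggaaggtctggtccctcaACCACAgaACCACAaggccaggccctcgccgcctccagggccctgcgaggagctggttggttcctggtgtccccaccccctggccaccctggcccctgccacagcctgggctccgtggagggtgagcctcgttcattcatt
Runx3 proximal promoter: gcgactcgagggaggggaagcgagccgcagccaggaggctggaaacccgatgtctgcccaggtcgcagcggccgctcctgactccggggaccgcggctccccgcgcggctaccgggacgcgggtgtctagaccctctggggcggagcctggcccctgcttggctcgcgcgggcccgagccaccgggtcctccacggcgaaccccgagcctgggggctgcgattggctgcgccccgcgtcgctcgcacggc
Runx3 peak 22.0 kb upstream: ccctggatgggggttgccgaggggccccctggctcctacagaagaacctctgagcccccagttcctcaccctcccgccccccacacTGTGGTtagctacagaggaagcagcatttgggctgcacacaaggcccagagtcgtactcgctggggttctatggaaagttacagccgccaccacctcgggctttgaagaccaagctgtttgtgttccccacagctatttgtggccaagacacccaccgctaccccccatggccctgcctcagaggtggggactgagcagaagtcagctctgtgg
Runx3 peak 40.1 kb upstream: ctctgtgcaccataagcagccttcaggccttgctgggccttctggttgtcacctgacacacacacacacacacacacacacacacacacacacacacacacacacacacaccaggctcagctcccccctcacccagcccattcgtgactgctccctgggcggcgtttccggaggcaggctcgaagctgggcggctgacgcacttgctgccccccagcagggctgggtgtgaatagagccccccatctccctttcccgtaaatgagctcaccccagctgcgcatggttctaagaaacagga

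Runx1 (ENSMUSG00000022952.17; reverse strand, chr16:92601466-92826149) was not past the fold as a whole but had single peaks that were, in both directions. An intergenic peak 284 kb before the distal start, chr16:93107955-93111954, held 3 counts in DN, 4 in DP, 31 in CD4 and 3 in CD8 cells, 8.94 times more in CD4 than in CD8 cells (2.79 to 45.7), in 17 CD4 cells. This order was the same in both label series, with 27 against 2 and 4 against 1 counts. In contrast, an intergenic peak 102 kb before the start, chr16:92925886-92929885, held 11, 7, 2 and 18 counts. It was 10.4 times higher in CD8 than in CD4 cells (2.49 to 92.4), with 11 CD8 cells and up to 6 counts in 1 of them. A peak centred in the intron 1.46 kb before the proximal start, chr16:92696786-92700785, held 9, 6, 18 and 2 counts, 7.79 times more in CD4 cells (1.86 to 69.2). A peak centred in the intron 3.77 kb after its nearest start, the distal group, chr16:92820010-92824009, held 41, 24, 49 and 19 counts, 2.23 times more in CD4 cells (1.29 to 4.01).

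All 4 peaks past the fold downward from DP to SP cells lay in the gene body between the Runx1 promoters. The 3 upward were the peak 284 kb before the distal start, chr16:92816670-92820669 with 2 counts in DP, 18 in CD4 and 7 in CD8 cells, and chr16:92821959-92825958 with 2, 11 and 15. None of these 3 was past the fold within the 4000s. An intronic peak 18.4 kb before the proximal start, chr16:92713703-92717702, held 22 counts in 19 DP cells but 8 in DN, 2 in CD4 and 4 in CD8 cells. The DP level was 8.17 times that of the SP sorts (3.21 to 24.6) and 6.36 times that of DN cells (2.73 to 16.5). An overlapping peak, chr16:92714210-92718209, held 30 counts in DP and 6 in DN, 2 in CD4 and 8 in CD8 cells. Its DP level was 6.68 times that of the SP sorts (3.18 to 15.3) and 11.6 times that of DN cells (4.74 to 34.0), and it was past the fold in both pairs within the 4000s as well. The third peak, chr16:92742002-92746001, held 1 count in DN, 13 in DP, 0 in CD4 and 7 in CD8 cells. The fourth, chr16:92759965-92763964, held 12 counts in DN, 19 in DP, 9 in CD4 and 5 in CD8 cells, 3.02 times higher in DP than in SP and 3.66 times higher than in DN cells. Within the 4000s this peak held 5 DP and 14 SP counts, a DP-to-SP ratio of 1.19 (0.336 to 3.50). The peak at the distal start, chr16:92824156-92828155, held 38, 16, 22 and 14 counts, and the one at the proximal start, chr16:92695416-92699415, held 12, 3, 8 and 3. Total thymocytes had 249 and 160 counts in these 2 peaks.

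**Figure D5:**
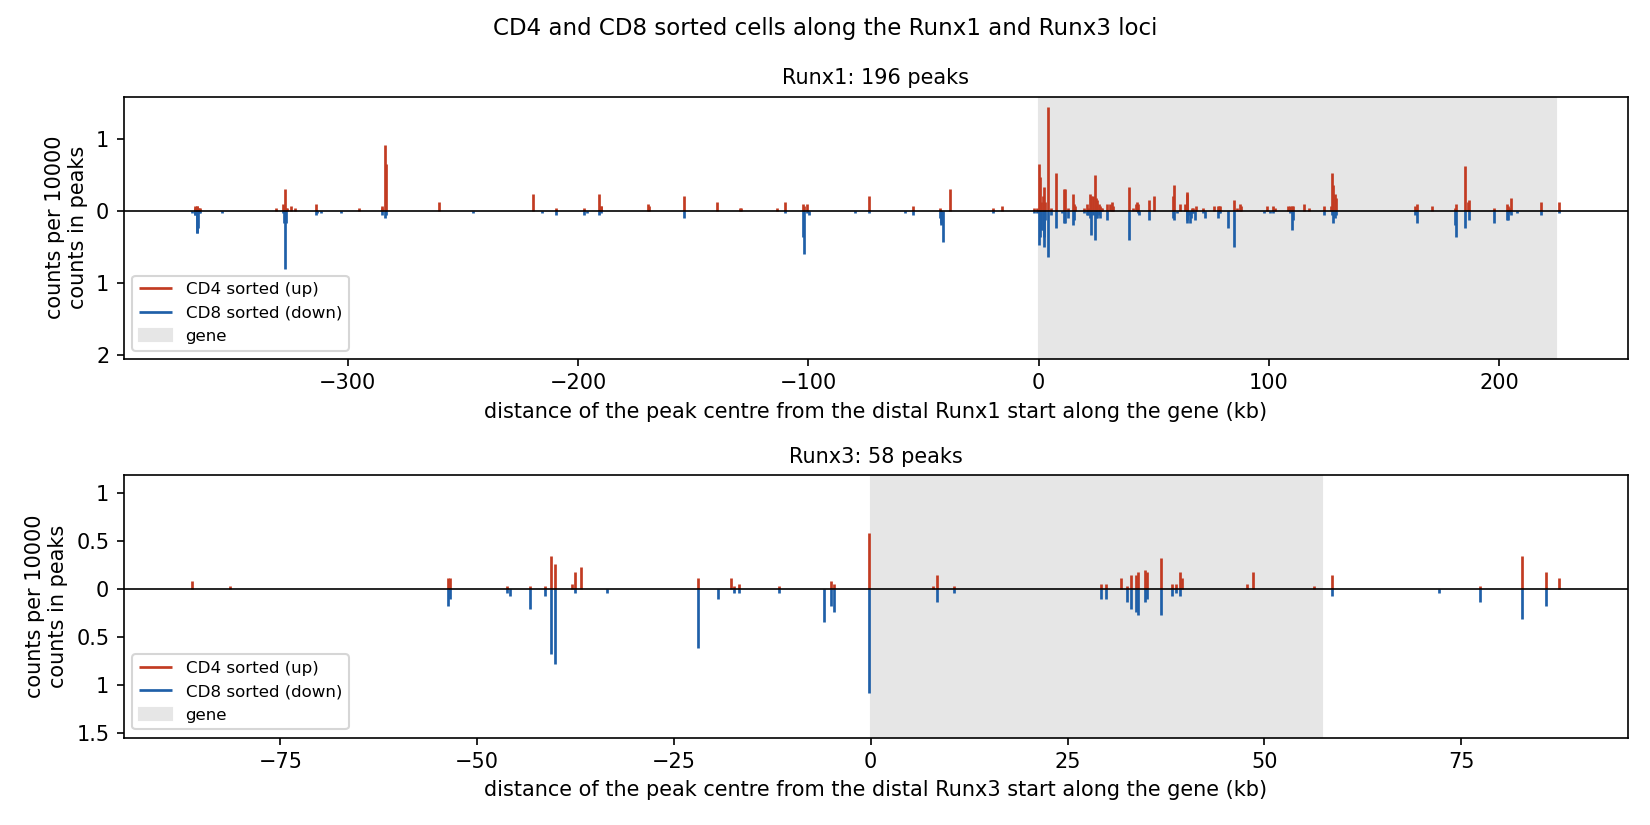
Counts per 10000 counts in peaks along the Runx1 and Runx3 loci, by distance of each peak's centre from the distal start in kb, for CD4 sorted cells (up) and CD8 sorted cells (down), with the gene body shaded. The CD4 side stands out at the Runx1 peak 284 kb upstream (31 against 3 counts) and the CD8 side at the Runx3 peak 22.0 kb upstream (18 against 4).

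The distal Runx1 promoter and the centres of 3 non-overlapping peaks past the fold, chosen for a high CD4, CD8 or DP level, are shown for comparison with those of Runx3. The promoter is the reverse strand of chr16:92826150-92826399 and holds 1 match to the Runx letters, in capitals. The CD4 peak centre, chr16:93109805-93110104, holds no match, and the CD8 peak centre, chr16:92927736-92928035, holds 1. In the DP peak centre, chr16:92715553-92715852, capitals mark 2 matches to AGATAA, one of the letter strings bound by GATA factors. AGATAA or TGATAA, on either strand, is in 19.8% of all peak centres and 14.3% of promoter windows. The 3 peak centres are on the forward strand.
Runx1 distal promoter: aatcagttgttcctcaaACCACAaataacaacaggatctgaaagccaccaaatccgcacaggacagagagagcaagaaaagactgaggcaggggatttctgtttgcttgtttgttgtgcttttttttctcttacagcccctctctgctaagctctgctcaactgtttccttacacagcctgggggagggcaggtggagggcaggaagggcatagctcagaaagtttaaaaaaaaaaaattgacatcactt
Runx1 peak 284 kb upstream: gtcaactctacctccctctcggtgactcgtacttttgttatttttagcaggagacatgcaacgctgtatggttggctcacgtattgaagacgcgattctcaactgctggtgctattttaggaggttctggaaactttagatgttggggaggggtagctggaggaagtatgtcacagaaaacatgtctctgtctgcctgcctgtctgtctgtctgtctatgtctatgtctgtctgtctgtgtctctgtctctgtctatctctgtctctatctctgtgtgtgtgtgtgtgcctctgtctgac
Runx1 peak 102 kb upstream: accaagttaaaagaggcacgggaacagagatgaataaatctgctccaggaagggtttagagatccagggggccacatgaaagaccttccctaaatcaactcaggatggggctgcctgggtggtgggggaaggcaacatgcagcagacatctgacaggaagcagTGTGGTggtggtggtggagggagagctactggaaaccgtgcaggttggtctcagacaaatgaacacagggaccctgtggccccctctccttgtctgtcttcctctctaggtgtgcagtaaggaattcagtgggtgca
Runx1 peak 18.4 kb before the proximal start: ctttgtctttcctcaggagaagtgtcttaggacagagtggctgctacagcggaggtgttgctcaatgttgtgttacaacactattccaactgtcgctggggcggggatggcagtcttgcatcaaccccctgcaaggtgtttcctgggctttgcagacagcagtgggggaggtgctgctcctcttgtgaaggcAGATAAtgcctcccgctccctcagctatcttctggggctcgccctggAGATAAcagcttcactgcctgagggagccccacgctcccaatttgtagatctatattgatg

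Gata3 and Tox, whose mRNAs were past the fold between DPsel-like and DPre-like cells, had no peak past the fold between SP and DP or between CD4 and CD8 cells. Only 9 Gata3 and 6 Tox peaks were judged in the first pair and 6 and 3 in the second. Of all peaks judged, 6.24% were upward and 5.47% downward in the first pair and 3.58% and 3.76% in the second. None past the fold among so few peaks is therefore no finding. The Gata3 (ENSMUSG00000015619.10) start, at chr2:9876576-9880575, held 26 counts in DN, 13 in DP, 6 in CD4 and 6 in CD8 cells. A peak 283 kb after the Gata3 start, chr2:9593561-9597560, held 19, 27, 16 and 14 counts and was past the fold between DN and DP cells, lower in DN. The Tox (ENSMUSG00000041272.11) start, at chr4:6988802-6992801, held 23, 3, 9 and 3 counts. A peak 374 kb before it, chr4:7362426-7366425, held 8, 13, 6 and 11 counts and was likewise lower in DN than in DP cells. Both distant peaks were assigned to these genes only as the nearest protein-coding start.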

How the data were processed

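For scRNA-seq, the authors used Cell Ranger 1.3.1 with GRCm38.p5, then a quality filter and quantile normalization, and deposited log2 values. For scATAC-seq, the authors mapped with Bowtie2, cleared duplicates (Picard), ran MACS2 once on all cells merged and deposited counts per peak and cell. Of 1988 scATAC-seq columns, 362 were not used, since the labels gave no such number from 1 to 36 or no group.

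Clusters of RNA cells came from Seurat 5.3.0, run in R 4.3.3 (20 principal components, 30 neighbors, resolution 2). A class was named from marker genes, except that 1 cluster led by Tnfrsf9 and Tnfrsf4 was kept apart after its genes were seen. Doublets were not called. All else used Python 3.11.15 with numpy 2.4.6, scipy 1.17.1, pandas 2.3.3 and scikit-learn 1.9.0. Peaks were assigned to the nearest protein-coding start of GENCODE M21; the build, GRCm38, was checked, with 27.9% of peak centres within 2 kb of a start and 9.41% after a shift of 100000 bp. Sequences were read from GRCm38.p6. Genes and peaks were judged at 20 or more steps or counts in both groups together. The member genes were named in full, with the 3 most alike genes of each, of which 1 for Runx1 is not reported here. Members and lists were chosen with earlier results of these data known. Of the lists, Tox2, Gata2, Zbtb7c, Eomes and Prf1 had no value here. Scripts were tested on simulated data. Alternatives are given in the closing section.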

Additional observations from a re-analysis of the deposited data

How the results depend on the processing

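Of 70 RNA values under alternative settings, 63 stayed within their spread and 7 moved. Of 79 locus values of scATAC-seq, 68 stayed, 10 moved and 1 that was past the fold changed sign. With 30 principal components, the mean log2 difference of Runx3 between DPsel-like and DPre-like cells was 0.11, against 0.06. On thinned steps, as log2(steps + 1), the DPsel-like minus DPre-like difference was 0.25 for Gata3 (0.39 in the deposited values) and 0.56 for Tox (0.91), and the CD4sp-like minus CD8sp-like difference of Runx3 was -0.34 (-0.66). With the cells above 0 for Ccr7, Klf2 or S1pr1, which are of several classes, divided by coreceptor mRNA, the last difference was -0.35 for Runx3, 0.02 for Zbtb7b (0.16) and 0.01 for Runx1 (0.19), the Cd4 only group holding 17 cells. No RNA difference changed sign. For scATAC-seq log2 ratios, counting only peaks within the gene body and 5 kb around it gave -0.63 for Gata3 and 0.89 for Tox between SP and DP cells (0.20 and 0.50) and -0.45 for Gata3 between CD4 and CD8 cells (-0.10). In label numbers in the 31000s, Tox between SP and DP cells was at 1.47, and Runx3 between CD4 and CD8 cells reversed to 0.26 (-0.74), on 8 and 2 counts. With all peaks, overlapping ones included, Zbtb7b between CD4 and CD8 cells was at 2.10 (0.74). The DN-to-DP log2 ratios, recomputed by label series after seeing the data, were 0.86 for Gata3 (0.07) and -0.61 for Tox (-0.16) in the 4000s, and 1.12 for Gata3, 0.34 for Tox and 0.20 for Runx1 (-0.18) in the 31000s. Of values not past the fold, Gata3 kept its sign in 6 of 7 alternatives between SP and DP cells and in 5 of 7 between CD4 and CD8 cells, and Runx1 in 3 of 7 between SP and DP cells. The causes were not tested.

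CD4sp-like minus CD8sp-like differences had no value at resolution 1 or with 30 principal components, where no cluster was CD8sp-like, and Zbtb7b between CD4 and CD8 cells had none in label numbers in the 31000s, with 7 and 0 counts. The planned comparison of total thymocytes whose labels are numbered 1 to 36 with all of them was not run, since the others were not used here. No paired analysis was possible because each sort and the RNA library were 1 sample, and no replicate number joins samples of different sorts. Values within label series are given in its place. Zbtb7b, with few steps and counts, is the member most limited by depth.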

Other observations

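Outside the main stages, the members were also read in 3 small groups of cells. The 31 NCL-like cells, led by the killer cell receptor genes Klrk1 and Klrd1 and by Gzmb, held Runx3 in 45.2% of cells, above the 36.7% of CD8sp-like cells in value but with an overlapping interval, and Zbtb7b in 16.1%. Gata3 was in 19.4% and Tox in 9.68% of them. The 73 unnamed cells led by Tnfrsf9 and Tnfrsf4, activation receptors of the TNF receptor family, held Tox in 31.5%, Gata3 in 12.3% and Zbtb7b in 9.59%. The 35 APC-like cells, led by Cd74 with the B cell genes Cd79a and Ms4a1, held Runx3 in 11.4%. The B cell list summed to 389 steps per 100 APC-like cells.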
